A study of Mus musculus with 12 samples.

Results

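The 43 genes described here encode lysosomal enzymes and membrane proteins and the autophagy machinery that delivers cargo to the lysosome. They were selected by gene symbol for these roles, and all 43 symbols were found among the 19036 genes of the deposited expression table. By role they comprised 11 cathepsins and other proteases, 13 glycosidases, lipid hydrolases and their helper proteins, 7 lysosomal membrane proteins, and 12 autophagy genes with the factors that control them. All 43 had at least 1 FPKM (fragments per transcript length and library size, a level that can be compared between genes) in at least 4 of the 12 libraries and so entered the main test. Gpnmb and Ctsk would not have met this filter in the vehicle libraries alone. They entered through the groups given cisplatin, where they were higher, so their p-values are not independent of the filter.

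The libraries came from whole kidneys of C57BL/6 mice, 4 biological replicates in each of 3 groups, collected 72 h after the injection. Vehicle mice received saline intraperitoneally, and cisplatin mice received 25 mg/kg of cisplatin by the same route. Combination mice received the same cisplatin dose and 15 mg/kg of 84-B10, a compound known here by its code name, from 48 h before the cisplatin and then daily. The labels disagree on whether the cisplatin group also had 84-B10 beforehand: the protocol text names both cisplatin groups as pretreated, the design text only the combination group. Libraries were grouped by title, and 84-B10 without cisplatin was not analysed here. The labels used here give the strain but not the sex or age of the mice.

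Estimated count totals lay between 15.76 and 16.52 M fragments in the vehicle libraries and between 17.47 and 18.17 M in the 6 other libraries with a named count column. Kidney markers were present in the vehicle libraries, where 10 proximal tubule markers summed to 8814 to 8982 FPKM. In a whole-kidney library, fewer cells of a type and less RNA per cell cannot be told apart. The p-values below measure the spread between these libraries.

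Lysosomes break down proteins, glycans, glycolipids and lipids with acid hydrolases, and the epithelial cells of the proximal tubule, which take up filtered proteins, are rich in them. Autophagy encloses damaged organelles and protein aggregates in membranes decorated with proteins of the LC3 and GABARAP families and fuses these vesicles with lysosomes. The transcription factors TFEB and TFE3 bind a short palindromic element in promoters of lysosomal genes and are held in the cytoplasm by the kinase mTORC1 when nutrients are plentiful.

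After cisplatin, some of the lysosomal genes rose, some fell and some changed little, as among all genes tested. Ctsd, encoding the aspartyl protease cathepsin D, rose from 331 ± 6.32 to 1017 ± 83.1 FPKM (mean ± SD, n = 4 per group). Lipa, encoding lysosomal acid lipase, fell from 157 ± 7.73 to 66.3 ± 3.76 FPKM. Lamp1, encoding one of the most abundant proteins of the lysosomal membrane, stood at 520.1 ± 8.16 and 499 ± 28 FPKM.

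Differences were tested with limma on log2(FPKM + 1) over all 12 libraries and 12428 genes. Genes with a Benjamini-Hochberg adjusted p under 0.05 are said to have passed, and differences on this scale understate changes of genes with low values. Of the 43 genes, 21 rose after cisplatin, 11 fell and 11 did not pass. The share that passed was 74.4%, against 78.1% of all genes tested, a share near this background. By direction, 48.8% of the 43 genes were higher and 25.6% lower, against 56.3% and 21.8% of all genes. The cisplatin and vehicle libraries did not overlap for 32 of the 43 genes, or 74.4%, against 71.6% of all genes. Of these, 21 were higher and 11 lower, beside 52.0% and 19.6% of all genes.

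These splits depend on how the libraries are scaled. On the deposited scale the median of all tested genes was 0.26 higher on the log2 scale after cisplatin, and after median-of-ratios scaling this median was 0.006. The top 10 genes of each library took 22.33 to 22.99% of the summed FPKM in vehicle and 14.03 to 15.11% in cisplatin libraries. After median-of-ratios scaling 13 of the 43 genes were higher and 22 lower, their median moved from 0.087 to -0.19, and all genes split into 4618 higher and 4602 lower in place of 6999 and 2711. The value after this scaling is therefore given beside each cisplatin difference of the 43 genes. Of the 21 genes that rose, 12 passed in the same direction under every alternative analysis that gave a value, namely Ctsb, Ctsc, Ctsd, Ctsk, Ctss, Ctsz, Gla, Npc1, Scarb2, Gpnmb, Tfe3 and Sqstm1. The same held for 10 of the 11 that fell, the exception being Ppt1. Ctsk and Gpnmb are counted among the 12, although they met the filter only through their treated libraries.

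**Figure D1:**
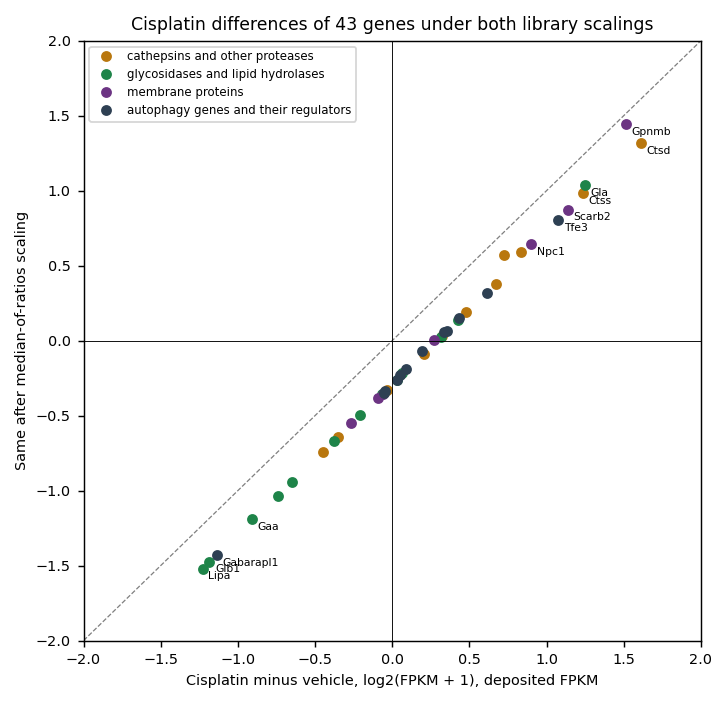
Cisplatin minus vehicle difference in log2(FPKM + 1) of the 43 genes on the deposited scale (horizontal axis) and after median-of-ratios scaling (vertical axis); colours mark role groups and the dashed line marks equal values. All points lie under the dashed line, and 7 genes, among them Lgmn and Atg7, change sign.

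**Figure D2:**
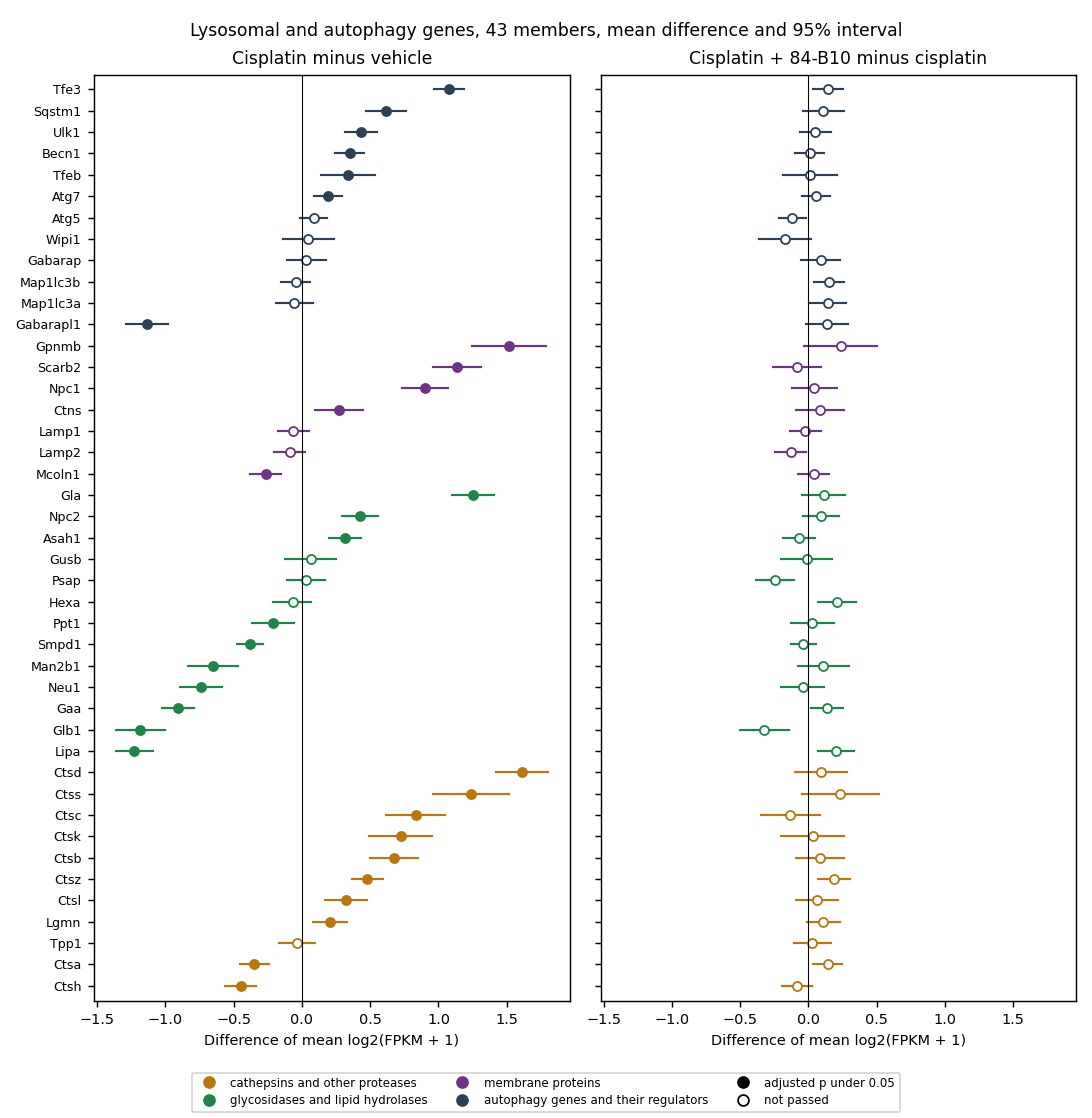
Difference in mean log2(FPKM + 1) for each of the 43 genes (points) with its 95% interval (lines), for cisplatin minus vehicle on the left and combination minus cisplatin on the right; colours mark the role groups and filled points passed at an adjusted p under 0.05. After cisplatin the differences ran from -1.23 for Lipa to 1.61 for Ctsd, and in the right panel none of the 43 points is filled.

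Among the 11 proteases, 8 rose, 2 fell and 1 did not pass. Their median difference was 0.48, beside 0.26 for all genes, of which 56.3% rose and 21.8% fell. After median-of-ratios scaling 6 were higher, 3 lower and 2 did not pass, and the median was 0.19. All 12428 genes then split into 4618 higher and 4602 lower, with a median of 0.006. Ctsd (NCBI gene 13033), the main aspartyl endoprotease of the lysosome, read 333, 333, 336 and 322 FPKM in the vehicle libraries, 896, 1084, 1052 and 1038 in the cisplatin libraries and 979.6, 1255, 1157 and 968 in the combination libraries. Every cisplatin and combination library lay far above every vehicle library. The difference between cisplatin and vehicle was 1.61 (SE 0.088, adjusted p = 1.77e-09), or 1.32 after median-of-ratios scaling. In log2(FPKM + 1) this was the largest of the 43 genes on the deposited scale and behind Gpnmb on the other. That order rests on the added 1, which understates changes of genes with low values. As a ratio of mean FPKM, Gla stood at 3.08 and Ctsd at 3.07, with Gpnmb above both. In order of mean FPKM among the 43 genes, Ctsd moved from 8th in vehicle to 1st in both cisplatin groups.

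Ctss, a cysteine protease known for cleaving the invariant chain in antigen-presenting cells, read 5.49, 5.45, 5.19 and 3.61 FPKM in the vehicle libraries, 10.1, 14.1, 12.7 and 15.1 in the cisplatin libraries and 14.7, 14.2, 18.2 and 14.4 in the combination libraries. The vehicle values lay below all others, with vehicle replicate 4 the lowest. Its difference was 1.24 (SE 0.13, adjusted p = 1.16e-06), or 0.98 after median-of-ratios scaling. Ctsz, a carboxypeptidase of the cathepsin family, read 104, 112, 109 and 109 FPKM in the vehicle libraries, 148, 141, 155 and 164 in the cisplatin libraries and 181, 164, 175 and 174 in the combination libraries. The 3 groups were fully separated, in the order vehicle, cisplatin, combination. Its difference from vehicle was 0.48 (SE 0.054, adjusted p = 2.17e-06), or 0.19 after median-of-ratios scaling.

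Ctsb, an abundant cysteine cathepsin, rose by 0.68 from 422 ± 12.2 to 677 ± 67.8 FPKM, or 0.38 after median-of-ratios scaling. Ctsc, which activates the serine proteases of leukocyte granules, rose by 0.83, and Ctsk, the collagen-degrading cathepsin of osteoclasts, by 0.72, or 0.59 and 0.57 after that scaling. The last 2 were low in every library, at 2.93 to 4.36 FPKM in vehicle and 5.78 to 7.71 FPKM in cisplatin for Ctsc and at 0.65 to 1.05 and 1.45 to 2.41 FPKM for Ctsk. Ctsl, the broad endopeptidase cathepsin L, and Lgmn, the asparaginyl endopeptidase that trims other cathepsins, passed on the deposited scale, at 0.32 and 0.21. After median-of-ratios scaling they stood at 0.029 and -0.088, and neither passed. Lgmn, the most abundant of the 11 in vehicle, read 421, 429, 453 and 456 FPKM in the vehicle libraries, 473, 535, 513 and 508 in the cisplatin libraries and 518, 552, 557 and 557 in the combination libraries, with every vehicle library below every treated library.

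Ctsh and Ctsa went the other way. Ctsh, an aminopeptidase, read 131, 132, 138 and 138 FPKM in the vehicle libraries, 103, 94.0, 94.0 and 103 in the cisplatin libraries and 97.4, 91.8, 87.2 and 95.3 in the combination libraries. Ctsa, a carboxypeptidase that also holds beta-galactosidase and neuraminidase in a stable complex, read 179, 183, 188 and 176 FPKM in the vehicle libraries, 138, 140.3, 140.2 and 149.8 in the cisplatin libraries and 153, 156, 151 and 169 in the combination libraries. For both, every vehicle library was above every other library. The differences were -0.45 (SE 0.052, adjusted p = 2.89e-06) for Ctsh and -0.35 (SE 0.049, adjusted p = 2.01e-05) for Ctsa, or -0.74 and -0.64 after median-of-ratios scaling. Tpp1, a tripeptidyl peptidase, did not pass, at 90.0 ± 1.91 and 88.0 ± 7.11 FPKM and a difference of -0.035. It was lower and passed after median-of-ratios scaling, at -0.33, and in edgeR and DESeq2 on the counts.

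Among the 13 glycosidases, lipid hydrolases and helpers, 3 rose, 7 fell and 3 did not pass, and the median was -0.21. After median-of-ratios scaling 1 was higher, 10 lower and 2 did not pass, and the median was -0.50. All 12428 genes then split into 4618 higher and 4602 lower, with a median of 0.006. Gla, the alpha-galactosidase that removes the terminal galactose of globotriaosylceramide, read 1.90, 2.08, 1.83 and 2.14 FPKM in the vehicle libraries, 6.13, 6.45, 5.78 and 6.10 in the cisplatin libraries and 6.53, 6.93, 5.79 and 7.58 in the combination libraries. All treated libraries exceeded all vehicle libraries. The difference was 1.25 (SE 0.072, adjusted p = 2.83e-09), or 1.04 after median-of-ratios scaling, at a low level in all groups.

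Lipa, which releases cholesterol and fatty acids from lipids taken up by the cell, read 167, 156, 149 and 154 FPKM in the vehicle libraries, 68.4, 69.8, 65.8 and 61.3 in the cisplatin libraries and 78.8, 69.1, 82.3 and 75.9 in the combination libraries. Every vehicle library lay above every treated library. The difference from vehicle was -1.23 (SE 0.062, adjusted p = 8.96e-10), or -1.52 after median-of-ratios scaling, the lowest of the 43 genes on both scales. Glb1, the beta-galactosidase whose activity is used as a stain for senescent cells, read 83.3, 81.1, 87.4 and 75.3 FPKM in the vehicle libraries, 40.7, 32.1, 33.1 and 36.3 in the cisplatin libraries and 31.8, 27.1, 25.1 and 28.8 in the combination libraries. Its libraries separated into 3 levels, with the combination libraries below all cisplatin libraries. The difference from vehicle was -1.18 (SE 0.083, adjusted p = 2.2e-08), or -1.47 after median-of-ratios scaling.

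Gaa, the acid alpha-glucosidase that degrades glycogen, read 37.2, 36.7, 33.4 and 34.5 FPKM in the vehicle libraries, 19.0, 19.2, 18.1 and 17.4 in the cisplatin libraries and 21.2, 18.9, 20.6 and 20.7 in the combination libraries. The vehicle libraries again lay above all others, and the difference was -0.91 (SE 0.054, adjusted p = 4.02e-09), or -1.19 after median-of-ratios scaling. Smaller falls were measured for the sialidase Neu1 (-0.74), the alpha-mannosidase Man2b1 (-0.65) and the acid sphingomyelinase Smpd1 (-0.38), or -1.03, -0.94 and -0.67 after median-of-ratios scaling. Neu1 went from 122 ± 6.13 to 72.6 ± 4.43 FPKM, Man2b1 from 55.0 ± 1.9 to 34.8 ± 3.82 FPKM and Smpd1 from 43.9 ± 1.53 to 33.5 ± 0.723 FPKM. Ctsa and its 2 partners in the stable complex, Glb1 and Neu1, were thus all lower after cisplatin. Ppt1, which removes palmitate from proteins, fell by 0.21 (adjusted p = 0.0166), with -0.50 after median-of-ratios scaling, and the call was lost without vehicle replicate 1 (adjusted p = 0.0502), without cisplatin replicate 3 (adjusted p = 0.056) and after rescaling to TPM (adjusted p = 0.103).

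Npc2, the soluble protein that carries cholesterol to the membrane transporter NPC1, read 30.6, 31.2, 29.9 and 31.8 FPKM in the vehicle libraries, 39.6, 40.9, 40.5 and 46.7 in the cisplatin libraries and 44.3, 48.9, 41.8 and 43.6 in the combination libraries. Asah1, the acid ceramidase, read 35.3, 33.3, 37.4 and 34.2 FPKM in the vehicle libraries, 45.4, 44.3, 41.2 and 44.2 in the cisplatin libraries and 40.4, 41.2, 40.0 and 45.5 in the combination libraries. Both were higher in every treated library than in any vehicle library on the deposited scale, after cisplatin by 0.42 (SE 0.061, adjusted p = 2.2e-05) for Npc2 and 0.31 (SE 0.055, adjusted p = 0.000134) for Asah1. After median-of-ratios scaling the values were 0.14 and 0.027, and neither passed. Psap, precursor of the saposins that present glycolipids to their hydrolases and the most abundant of the 43 genes in vehicle, read 592, 568, 628 and 539.8 FPKM in the vehicle libraries, 631, 569, 559 and 621 in the cisplatin libraries and 523, 479.6, 494 and 507 in the combination libraries. Vehicle and cisplatin libraries overlapped, and the difference was 0.032 (SE 0.064, adjusted p = 0.662). It was -0.26 after median-of-ratios scaling, where it passed as lower, as it did in edgeR and DESeq2 on the counts. Gusb, the beta-glucuronidase, and Hexa, the alpha subunit of beta-hexosaminidase, did not pass, at 0.064 and -0.069; after median-of-ratios scaling both were lower and passed, at -0.21 and -0.35.

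**Figure D3:**
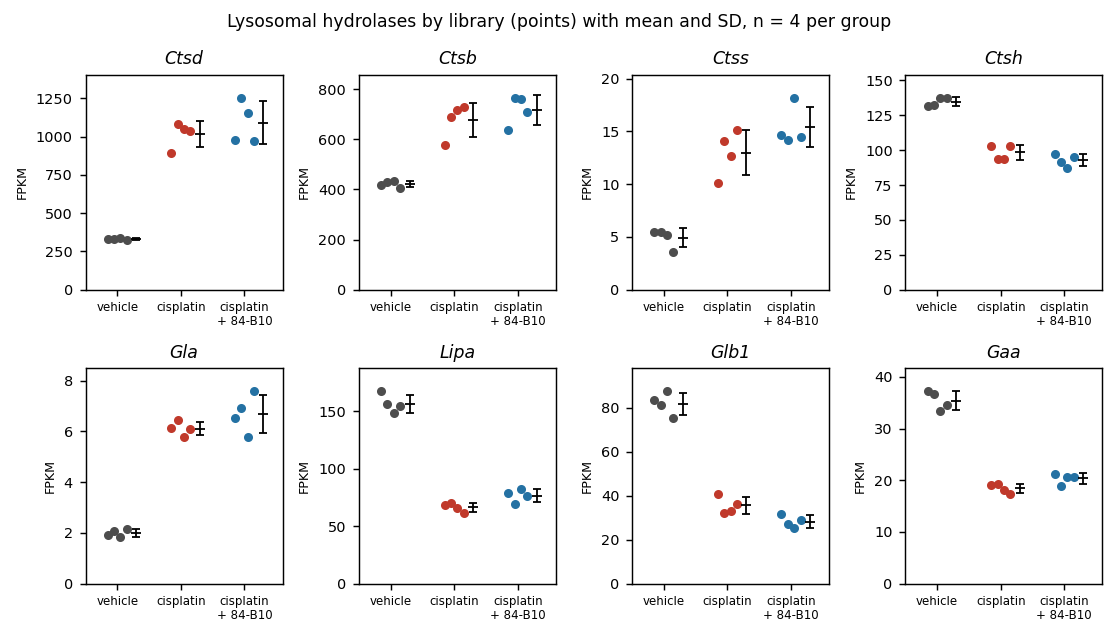
FPKM of 8 lysosomal hydrolases in each library (points, replicates 1 to 4 from left to right within a group) with the group mean and SD (bars, n = 4); each vertical axis starts at 0. Ctsd, Ctsb, Ctss and Gla are higher in all 8 treated libraries than in any vehicle library, and Ctsh, Lipa, Glb1 and Gaa are lower.

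Of the 7 membrane proteins, 4 rose, 1 fell and 2 did not pass, and the median was 0.27. This is near all genes, of which 56.3% rose and 21.8% fell, with a median of 0.26. After median-of-ratios scaling 3 were higher, 3 lower and 1 did not pass, beside 4618 higher and 4602 lower of all 12428 genes. Scarb2, known as LIMP-2, which carries glucocerebrosidase to the lysosome, read 5.66, 6.62, 7.07 and 5.88 FPKM in the vehicle libraries, 14.0, 17.4, 13.8 and 15.1 in the cisplatin libraries and 12.8, 14.8, 15.0 and 14.0 in the combination libraries. Npc1, the transporter that moves cholesterol out of the lysosome, read 4.40, 5.14, 4.90 and 4.82 FPKM in the vehicle libraries, 10.4, 11.3, 8.41 and 9.44 in the cisplatin libraries and 9.71, 9.85, 10.3 and 10.8 in the combination libraries. For both genes the lowest treated library was above the highest vehicle library. The differences were 1.14 (SE 0.082, adjusted p = 2.83e-08) for Scarb2 and 0.90 (SE 0.077, adjusted p = 1.56e-07) for Npc1, or 0.87 and 0.65 after median-of-ratios scaling.

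Gpnmb, a glycoprotein of macrophages and pigment cells, read 0.02, 0.02, 0.05 and 0.06 FPKM in the vehicle libraries, 1.86, 2.27, 1.44 and 2.37 in the cisplatin libraries and 2.69, 2.11, 1.94 and 3.37 in the combination libraries. It was close to 0 in every vehicle library and remained at a few FPKM after treatment, so no fold is given. Its difference was 1.51 (SE 0.125, adjusted p = 1.08e-07), or 1.44 after median-of-ratios scaling. Gpnmb entered the test only through the treated libraries where it was high, so this p-value is no separate support for the rise. Mcoln1, the calcium channel of the lysosomal membrane also called TRPML1, read 30.8, 31.2, 33.3 and 32.4 FPKM in the vehicle libraries, 27.3, 26.9, 24.6 and 26.8 in the cisplatin libraries and 28.9, 26.8, 25.3 and 27.7 in the combination libraries. Every vehicle library was above all others, and the difference was -0.27 (SE 0.052, adjusted p = 0.000377), or -0.55 after median-of-ratios scaling.

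Lamp1 read 530.2, 511, 522 and 517 FPKM in the vehicle libraries, 521, 491, 462 and 521 in the cisplatin libraries and 502, 480.2, 489 and 489 in the combination libraries. Its vehicle and cisplatin libraries overlapped, as did those of Lamp2, the companion protein needed for the fusion of autophagic vesicles with lysosomes. The differences were -0.062 (SE 0.053, adjusted p = 0.297) for Lamp1 and -0.089 (SE 0.052, adjusted p = 0.134) for Lamp2. After median-of-ratios scaling they were -0.36 and -0.38, and both passed as lower. Ctns, the cystine exporter, passed on the deposited scale at 0.27 and stood at 0.001 after median-of-ratios scaling.

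Of the 12 autophagy genes, 6 rose, 1 fell and 5 did not pass, and the median was 0.14. After median-of-ratios scaling 3 were higher, 6 lower and 3 did not pass, beside 4618 higher and 4602 lower of all 12428 genes. Tfe3, one of the transcription factors of lysosomal genes, read 9.67, 10.5, 9.78 and 10.4 FPKM in the vehicle libraries, 22.1, 24.3, 21.4 and 21.9 in the cisplatin libraries and 24.4, 24.6, 24.2 and 26.2 in the combination libraries. All treated libraries stood above all vehicle libraries with little spread. The difference was 1.08 (SE 0.052, adjusted p = 5.49e-10), or 0.80 after median-of-ratios scaling. Tfeb, its relative, read 12.9, 15.5, 13.6 and 15.3 FPKM in the vehicle libraries, 16.3, 17.0, 20.1 and 20.1 in the cisplatin libraries and 17.9, 20.1, 20.1 and 15.8 in the combination libraries. Vehicle libraries lay below the others by a small margin. Its difference was 0.34 (SE 0.092, adjusted p = 0.00438) on the deposited scale and 0.058 after median-of-ratios scaling, where it did not pass. Tfe3 made up 41.4 ± 1.13% of the summed FPKM of both factors in vehicle and 55.0 ± 3.71% in cisplatin libraries (mean ± SD, n = 4). The other members of this factor family, Mitf and Tfec, did not pass, at 0.026 (SE 0.079, adjusted p = 0.776) and 0.014 (SE 0.089, adjusted p = 0.889). After median-of-ratios scaling both were lower and passed, at -0.19 and -0.25.

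Sqstm1, the receptor that ties ubiquitinated cargo to autophagic membranes and is itself degraded with it, read 308, 303, 300.3 and 289 FPKM in the vehicle libraries, 491, 432, 459 and 460.0 in the cisplatin libraries and 556, 443, 481 and 511 in the combination libraries. Vehicle and treated libraries were separate. The difference was 0.61 (SE 0.069, adjusted p = 2.12e-06), or 0.32 after median-of-ratios scaling. Ulk1, the kinase that starts autophagy, read 19.4, 17.0, 18.3 and 18.02 FPKM in the vehicle libraries, 26.0, 26.1, 23.3 and 24.0 in the cisplatin libraries and 25.6, 25.7, 25.2 and 26.6 in the combination libraries. Becn1, a subunit of the lipid kinase complex that follows it, read 47.4, 45.3, 46.3 and 49.5 FPKM in the vehicle libraries, 57.1, 60.8, 60.3 and 63.3 in the cisplatin libraries and 60.4, 63.8, 61.4 and 57.4 in the combination libraries. Both were higher in every treated library than in any vehicle library, after cisplatin by 0.43 (SE 0.053, adjusted p = 5.16e-06) for Ulk1 and 0.35 (SE 0.049, adjusted p = 1.85e-05) for Becn1. Ulk1 stood at 0.15 and Becn1 at 0.063 after median-of-ratios scaling. Ulk1 did not pass in edgeR or DESeq2 on the counts, and Becn1 in neither of these nor after that scaling.

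The proteins of the LC3 and GABARAP families are attached to lipid on the growing vesicle. Gabarapl1 read 408, 399.8, 359 and 396 FPKM in the vehicle libraries, 194, 169.7, 174 and 171 in the cisplatin libraries and 212, 187, 176 and 208 in the combination libraries. All treated libraries were at about the same low level, far under the vehicle libraries. The difference was -1.14 (SE 0.071, adjusted p = 7.01e-09), or -1.43 after median-of-ratios scaling. Gabarap, the most abundant of the 12 in vehicle, read 374, 412, 426 and 396 FPKM in the vehicle libraries, 378, 393, 436 and 438 in the cisplatin libraries and 409, 449.6, 443 and 447 in the combination libraries. Its groups overlapped, with a difference of 0.032 (SE 0.065, adjusted p = 0.659), which after median-of-ratios scaling was -0.26 and passed as lower. Gabarapl1 made up 49.3 ± 2.68% of the summed FPKM of both genes in vehicle, 30.2 ± 2.65% in cisplatin and 30.9 ± 2.55% in combination libraries, with no overlap between vehicle and the others.

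Map1lc3a read 97.9, 94.1, 87.7 and 88.8 FPKM in the vehicle libraries, 88.9, 86.2, 87.6 and 91.6 in the cisplatin libraries and 97.7, 104, 104 and 85.6 in the combination libraries. Map1lc3b read 69.9, 70.6, 66.7 and 68.4 FPKM in the vehicle libraries, 61.5, 66.9, 67.1 and 71.5 in the cisplatin libraries and 73.0, 76.5, 71.4 and 75.9 in the combination libraries. The vehicle and cisplatin values of both LC3 genes overlapped. Their differences were -0.055 (SE 0.064, adjusted p = 0.44) for Map1lc3a and -0.047 (SE 0.051, adjusted p = 0.403) for Map1lc3b. After median-of-ratios scaling they were -0.35 and -0.34, and both passed as lower. The share of Map1lc3a in their sum was 57.2 ± 0.83% in vehicle and 57.1 ± 1.39% in cisplatin libraries. Of the conjugation enzymes, Atg7 passed at 0.19 on the deposited scale, with -0.071 after median-of-ratios scaling. Atg5 and Wipi1, which binds the early vesicle membrane, did not pass, at 0.087 and 0.048, and both were lower and passed after median-of-ratios scaling, at -0.19 and -0.23.

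**Figure D4:**
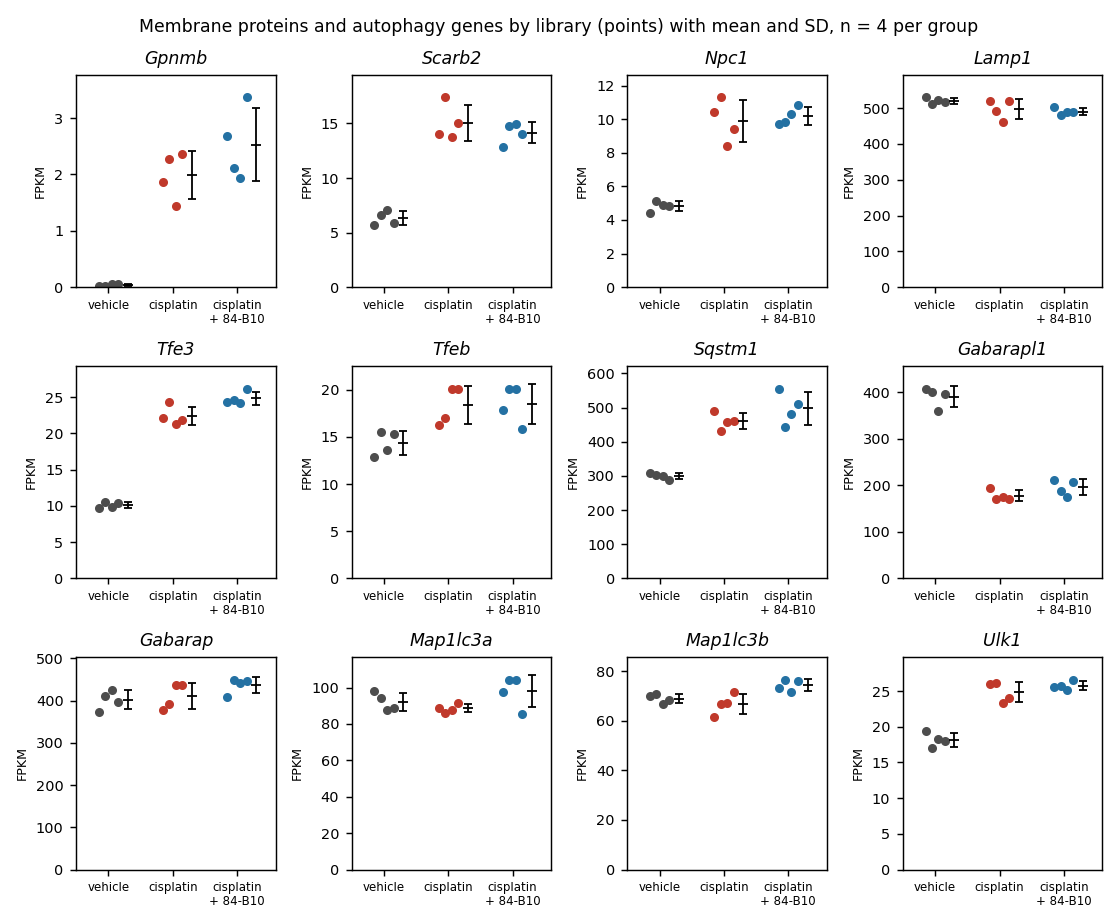
FPKM of 4 membrane proteins and 8 autophagy genes in each library (points, replicates 1 to 4 from left to right within a group) with the group mean and SD (bars, n = 4); each vertical axis starts at 0. Gpnmb, Scarb2, Npc1, Tfe3, Sqstm1 and Ulk1 are higher in all treated libraries, Gabarapl1 is lower, and for Lamp1, Gabarap, Map1lc3a and Map1lc3b the vehicle and cisplatin libraries overlap.

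Summed over role groups, the proteases rose from 2030 ± 22.8 FPKM in vehicle to 3098 ± 200 FPKM in cisplatin and 3301 ± 205 FPKM in combination libraries (mean ± SD, n = 4). The glycosidases and lipid hydrolases went from 1236 ± 43.9 to 1032 ± 51.4 and 948.8 ± 32.8 FPKM. In both sums all vehicle libraries were separate from all treated libraries, in opposite directions. The membrane proteins stood at 1000 ± 10.0, 966.2 ± 37.7 and 924.4 ± 23.6 FPKM and the autophagy genes at 1381 ± 19.2, 1370 ± 37.7 and 1470 ± 39.3 FPKM. All these sums are on the deposited scale and depend on it. They were not formed after median-of-ratios scaling, where the abundant Lamp1, Lamp2 and Gabarap stood at -0.36, -0.38 and -0.26 after cisplatin. Ctsd carried much of the protease sum: its share of the 6 cathepsins Ctsa, Ctsb, Ctsd, Ctsh, Ctsl and Ctsz was 22.2 ± 0.19% in vehicle, 41.0 ± 0.82% in cisplatin and 41.2 ± 2.53% in combination libraries. These shares are ratios within a library and do not depend on its scaling.

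**Figure D5:**
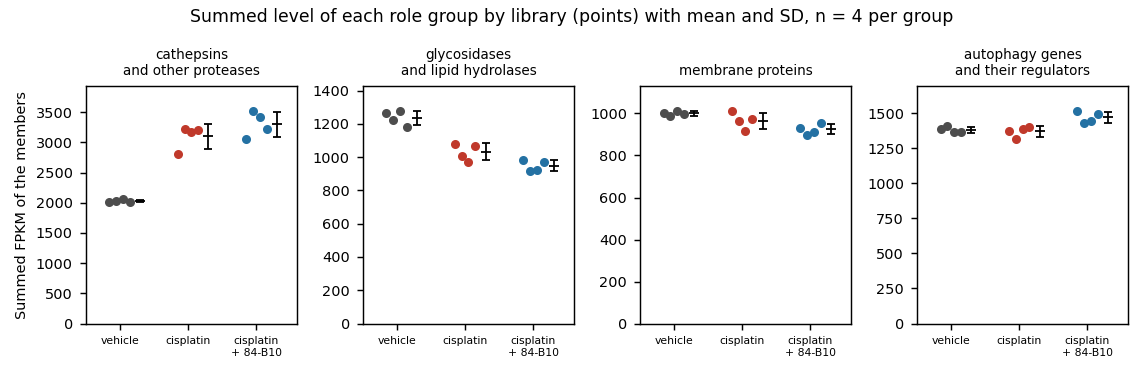
Summed FPKM, on the deposited scale, of the genes of each role group in each library (points) with the group mean and SD (bars, n = 4); each vertical axis starts at 0. The protease sum is higher in all 8 treated libraries, from 2800 FPKM upward, than in any vehicle library, while the sum of glycosidases and lipid hydrolases is lower.

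The binding element of TFEB and TFE3 was looked for in promoters, because Tfe3 rose. The lysosomal genes, like all genes tested, moved both ways. RefSeq promoter windows of build GRCm38.p6, from 250 bases before to 50 bases after the transcription start, matched 37 of the 43 genes, not Ctsb, Ctsh, Asah1, Npc1, Map1lc3a or Becn1. The letters CACGTG, which read the same on both strands, stood in 11 of these 37 genes, or 29.7%, and in 8.1% of the 27025 genes with a window. The longer palindrome TCACGTGA, the core of the element known as CLEAR, which contains CACGTG, stood in 4 of the 37, or 10.8%, and in 1.1% of all genes. These 4 were Ctsd and Gla, which rose, and Ctsa and Mcoln1, which fell. CACGTG stood in 5 of 17 matched genes that rose, 4 of 10 that fell and 2 of 10 that did not pass. A match describes the letters of the window and not a bound site.

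The promoters of the 4 genes with the longer palindrome are shown 5′ to 3′ on the gene's strand, 250 bases before and 20 after the start, so that a pair that rose can be read beside a pair that fell. Capitals mark CACGTG.
Ctsd, chr7:142387808-142388077, minus strand: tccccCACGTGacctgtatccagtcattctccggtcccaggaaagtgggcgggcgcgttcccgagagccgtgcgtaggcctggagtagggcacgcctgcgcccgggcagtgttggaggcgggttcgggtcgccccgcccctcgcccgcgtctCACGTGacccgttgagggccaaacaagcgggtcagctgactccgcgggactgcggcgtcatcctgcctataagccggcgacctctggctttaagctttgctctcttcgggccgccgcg
Gla, chrX:134600986-134601255, minus strand: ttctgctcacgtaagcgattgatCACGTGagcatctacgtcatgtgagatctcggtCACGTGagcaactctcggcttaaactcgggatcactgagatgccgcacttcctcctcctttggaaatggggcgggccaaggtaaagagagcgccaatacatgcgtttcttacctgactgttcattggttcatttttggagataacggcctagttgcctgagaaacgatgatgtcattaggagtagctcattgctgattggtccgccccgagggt
Ctsa, chr2:164833523-164833792, plus strand: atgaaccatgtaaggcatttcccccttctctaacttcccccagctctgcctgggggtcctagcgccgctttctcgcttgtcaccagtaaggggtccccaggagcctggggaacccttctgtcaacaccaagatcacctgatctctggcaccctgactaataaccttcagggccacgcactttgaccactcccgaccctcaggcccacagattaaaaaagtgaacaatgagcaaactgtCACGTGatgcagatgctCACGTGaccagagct
Mcoln1, chr8:3500269-3500538, plus strand: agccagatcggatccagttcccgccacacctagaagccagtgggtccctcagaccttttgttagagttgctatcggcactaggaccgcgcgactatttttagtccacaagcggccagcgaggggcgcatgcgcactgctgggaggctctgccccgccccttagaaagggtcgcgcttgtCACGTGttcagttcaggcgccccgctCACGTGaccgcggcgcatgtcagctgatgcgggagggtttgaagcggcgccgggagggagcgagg
Each holds CACGTG 2 times. The flanks complete the palindrome at both places in Gla and Ctsa and at 1 place in Ctsd and Mcoln1. Counted from the start site, taken as 0, to the first letter of CACGTG, the places were -245 and -98 in Ctsd, -227 and -194 in Gla, -12 and 5 in Ctsa, and -71 and -45 in Mcoln1. Ctsd and Gla rose (1.61 and 1.25), and Ctsa and Mcoln1 fell (-0.35 and -0.27). The places of the letters also differ between the pairs. In the other genes with CACGTG that rose, they were -132 in Atg7, -236 in Ctsl and -49 in Lgmn. In those that fell, they were -140 in Gaa and -48 in Glb1. Whether the element or its place bears on either direction was not tested.

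The comparison of combination with cisplatin asks whether 84-B10 altered the response to cisplatin, within the limit that the labels disagree on the pretreatment of the cisplatin group. None of the 43 genes passed, against 2.21% of all genes tested in limma, 0.435% higher and 1.78% lower. At an unadjusted p under 0.05 there were 12 of the 43 genes in limma, or 27.9% beside 14.8% of all genes, 9 in edgeR, or 20.9% beside 12.6%, and 8 in DESeq2, or 18.6% beside 10.6%. The widest 95% interval reached 0.28 to either side on the log2 scale. These intervals are not adjusted over all genes, so they do not mark the smallest change that could pass. Glb1, at -0.32, did not pass, and changes of that size may also have been missed.

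Groups did not overlap for 7 of the 43 genes, or 16.3%, against 8.24% of all genes. These were 3 with higher and 4 with lower combination libraries, beside 4.01% and 4.23% of all genes. Glb1 was lower in all 4 combination libraries, at 31.8, 27.1, 25.1 and 28.8 FPKM, than in any cisplatin library, with a difference of -0.32 (95% interval -0.50 to -0.14) and an adjusted p of 0.0695. It passed after quantile normalization (adjusted p = 0.0483), with the replicate block (adjusted p = 0.0429), without cisplatin replicate 2 (adjusted p = 0.0479) and without combination replicate 1 (adjusted p = 0.0354). It did not pass in edgeR, in DESeq2, after median-of-ratios scaling or without any other single library. Psap had its combination libraries lower, at -0.25 (95% interval -0.39 to -0.11), with an adjusted p of 0.0719. Atg5 and Wipi1 showed the same order, at -0.12 (95% interval -0.22 to -0.02) and -0.17 (95% interval -0.36 to 0.016). Ctsa, Ctsz and Hexa were the 3 genes with all combination libraries above all cisplatin libraries, at 0.14 (95% interval 0.035 to 0.25), 0.19 (95% interval 0.073 to 0.30) and 0.21 (95% interval 0.071 to 0.35). The lowest adjusted p among these last 6 genes was that of Psap.

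Among the 9 genes with the largest cisplatin differences, only Glb1 had all combination libraries apart from all cisplatin libraries. They lay further from vehicle, but Glb1 did not pass. The mean differences of Ctsd, Gla, Ctss, Gpnmb and Tfe3 also lay further from vehicle, and those of Lipa, Scarb2 and Gabarapl1 lay nearer to it. For the other 8 genes the groups overlapped, and the difference between combination and cisplatin was 0.094 (95% interval -0.096 to 0.28) for Ctsd, 0.20 (95% interval 0.067 to 0.34) for Lipa and 0.11 (95% interval -0.044 to 0.27) for Gla. It was 0.23 (95% interval -0.047 to 0.52) for Ctss and 0.23 (95% interval -0.036 to 0.51) for Gpnmb, the widest intervals among them, and -0.082 (95% interval -0.26 to 0.095) for Scarb2. For Tfe3 it was 0.14 (95% interval 0.032 to 0.26), and for Gabarapl1 0.14 (95% interval -0.016 to 0.29). Besides Glb1, the intervals of Lipa and Tfe3 leave out 0, but neither gene passed after adjustment over all genes.

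Combination against vehicle used the same vehicle libraries as cisplatin against vehicle, so both comparisons share their controls. Of the 43 genes, 21 were higher and 13 lower, or 79.1%, against 79.2% of all genes tested (56.6% higher and 22.6% lower). Groups did not overlap for 35 of them, 22 higher and 13 lower, or 81.4%, against 74.8% of all genes (53.9% higher and 20.9% lower). Ctsd stood at 1.71 (SE 0.088, adjusted p = 8.91e-10), Tfe3 at 1.22 (SE 0.052, adjusted p = 1.4e-10) and Gpnmb at 1.75 (SE 0.125, adjusted p = 2.27e-08). Gpnmb met the filter only through its treated libraries, so its p-value is no separate support for the rise here either. Gla was higher at 1.36 (SE 0.072, adjusted p = 1.09e-09), while Glb1 was lower at -1.51 (SE 0.083, adjusted p = 1.73e-09) and Lipa at -1.03 (SE 0.062, adjusted p = 4.48e-09). Psap and Lamp2, which had not passed in cisplatin against vehicle, were lower here, at -0.21 (SE 0.064, adjusted p = 0.00736) and -0.22 (SE 0.052, adjusted p = 0.00161). Lamp2 read 423, 424, 433 and 427 FPKM in the vehicle libraries, 423, 399, 397 and 386 in the cisplatin libraries and 364, 349.7, 361 and 393 in the combination libraries, with all combination libraries under all vehicle libraries.

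Other genes of the same pathways, from lists that do not contain the 43 genes, were counted in the same comparison of cisplatin with vehicle. The background for each list, here and below, is all 12428 genes tested, of which 56.3% rose and 21.8% fell. After median-of-ratios scaling 4618 of them were higher and 4602 lower. Of 35 other lysosomal hydrolases tested, 11 rose, 16 fell and 8 did not pass; after median-of-ratios scaling 6 were higher and 23 lower. Hyal1, a hyaluronidase, rose from 5.43 ± 0.334 to 15.3 ± 1.42 FPKM, while the sulfatase Arsg fell from 14.4 ± 1.04 to 4.32 ± 0.671 FPKM. In combination against cisplatin, 1 of the 35 passed, beside 2.21% of all genes. Galns, a sulfatase of keratan sulfate, was lower, at -0.32 (SE 0.06, adjusted p = 0.0125).

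Of 30 other lysosomal membrane and sorting proteins, 15 rose, 7 fell and 8 did not pass; after median-of-ratios scaling 10 were higher and 13 lower. Cd68, a lysosomal glycoprotein used as a marker of phagocytes, rose from 1.96 ± 0.355 to 64.1 ± 11.3 FPKM. Hgsnat, an acetyltransferase of heparan sulfate breakdown, rose by 1.05 and the small membrane protein Laptm4b by 0.73, or 0.77 and 0.45 after that scaling. Of 40 other autophagy genes, 20 rose, 9 fell and 11 did not pass; after median-of-ratios scaling 11 were higher and 19 lower. Optn, another cargo receptor, rose by 1.10 (SE 0.07, adjusted p = 7.69e-09), and Atg4a, a protease that processes LC3-type proteins, by 1.27 (SE 0.086, adjusted p = 1.47e-08). Atg10, an enzyme of the conjugation cascade, fell from 8.27 ± 0.485 to 2.40 ± 0.23 FPKM. Gabarapl2, the remaining GABARAP gene, stood at 0.36 (SE 0.053, adjusted p = 2.89e-05), and at 0.069 after median-of-ratios scaling, where it did not pass.

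Markers of other cells moved with these differences. Of 16 macrophage markers, 9 had enough signal to test, of which 7 rose, 1 fell and 1 did not pass. The filter favours markers that rise from a low level, so this split is no separate support for a rise. In edgeR on the counts all 16 were tested, with 8 higher, 4 lower and 4 not passed. All genes there split into 5095 higher and 4754 lower. Their summed level was 69.11 to 76.13 FPKM in vehicle, 127.83 to 164.28 FPKM in cisplatin and 134.95 to 172.67 FPKM in combination libraries. Cd14, Itgam and C1qa rose by 2.91, 1.31 and 1.21, whereas the defining receptor Csf1r stood at 7.36 ± 0.737 and 7.22 ± 1.42 FPKM and did not pass. After median-of-ratios scaling Csf1r was lower and passed, at -0.29. Adgre1, Mrc1, Fcgr1 and Cd163 were under 1 FPKM in all libraries, and no marker was at 0 in all of them. Of 10 leukocyte markers 5 were tested, with S100a8 and S100a9 higher and Ptprc, the general leukocyte antigen, lower at -0.28. In edgeR 9 of them were tested, with 2 higher, 5 lower and 2 not passed. Itgam, S100a8 and S100a9 met the filter of the main test only through their treated libraries.

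All 10 proximal tubule markers fell, and their summed level was 1693 to 2891 FPKM in cisplatin and 1555 to 2798 FPKM in combination libraries. Of 10 distal nephron and collecting duct markers 7 fell and 2 rose, and of 8 podocyte and endothelial markers 4 fell and 1 rose. Ctss, Ctsc, Gpnmb and Cd68 are known from macrophages, and the proximal tubule is known for its many lysosomes. The part of these marker shifts in the differences of the lysosomal genes was not tested.

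In the GENCODE M21 annotation, exons of 14 of the 43 genes overlapped exons of another gene, 2 of them on the same strand and 12 on the opposite strand. Whether the counting used strand is unknown here, and reads of such pairs may not be told apart. Glb1 shares its strand with Tmppe, at 4.91 to 6.49 FPKM in vehicle and 3.84 to 4.52 FPKM in cisplatin libraries, far under Glb1. Ctsd shares its strand with a predicted gene that has no row in the table used. Among opposite partners, Cap1 beside Ppt1 ran from 47.61 to 53.79 FPKM in vehicle and from 80.77 to 89.76 FPKM in cisplatin libraries, and Rmc1 beside Npc1 from 7.33 to 7.92 and from 9.06 to 11.1 FPKM. These partners were at or above the level of their gene in the cisplatin libraries or in vehicle, and Ppt1 and Npc1 are uncertain to that extent.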

How the data were processed

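The authors deposited a table of 19036 genes with FPKM for 12 libraries, estimated counts, of which 34.3% are not whole, and group means. The submitters' processing notes name HISAT2 2.0.4, Bowtie2 2.2.5 and RSEM 1.2.12 without their roles; genome build, annotation, kit and strand setting were each not given in the sources used here. Deposited FPKM columns were named for all 12 libraries and none were identical. Estimated counts could be assigned by column name to 10 libraries, not to cisplatin replicates 1 and 2, and 14 per-sample columns were not used.

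FPKM were tested as log2(FPKM + 1) with limma 3.58.1 in R 4.3.3, with 3 group means, a mean trend and 9 residual degrees of freedom, two-sided, for 12428 genes with at least 1 FPKM in at least 4 libraries. Benjamini-Hochberg adjustment ran over all genes tested, and the threshold was 0.05. Alternatives were a pseudocount of 0.1, no filter, a mean of at least 5 FPKM, quantile normalization, scaling by the median of ratios or to TPM, a replicate block, only the groups compared, edgeR 4.0.16 and DESeq2 1.42.0 on the rounded estimated counts of 10 libraries (14831 genes) with limma on their FPKM, and leaving out each library. The limma and edgeR fits were tested on simulated data. The genes, lists and tests were chosen with earlier results of these data known. Values in every library are given for the genes of each role group with the largest moderated statistic each way (up to 3), the most abundant gene of each group and the TFEB and LC3 families. In other lists, up to 3 genes with the largest statistic are named. Galns, Gabarapl2, Mitf, Tfec, Csf1r and the exon partners were named after their values were seen.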

Additional observations from a re-analysis of the deposited data

Results flagged for a closer look

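Single libraries stood apart from the other 3 of their group in 6 of 129 combinations of gene and group, by the critical value of Dixon's gap to range ratio, which chance exceeds in about 1 in 20 groups. Ctsa read 149.84 FPKM in cisplatin replicate 4, above 138.33 to 140.26 FPKM in the others. Ctss read 3.61 FPKM in vehicle replicate 4, below 5.19 to 5.49 FPKM, and 18.21 FPKM in combination replicate 3, above 14.22 to 14.66 FPKM. Lgmn read 518.32 FPKM in combination replicate 1, below 552.37 to 557.42 FPKM. Hexa read 28.59 FPKM in vehicle replicate 2, above 24.31 to 24.96 FPKM, and Neu1 read 112.89 FPKM in vehicle replicate 3, below 123.91 to 125.75 FPKM. In cisplatin against vehicle, the calls of Ctsa, Ctss and Neu1 held without the vehicle or cisplatin library concerned, and Hexa did not pass with or without vehicle replicate 2.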

How the results depend on the processing

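Library scaling moved the counts most. Of the 43 genes in cisplatin against vehicle, 13 were higher and 22 lower after median-of-ratios scaling, 13 and 20 in edgeR, and 13 and 21 in DESeq2, and 18 were lower after quantile normalization. All genes then split into 5095 higher and 4754 lower in edgeR, 4805 and 4695 in DESeq2 and 4288 and 4783 after quantile normalization. In combination against vehicle, 14 were higher and 22 lower under median-of-ratios scaling, edgeR and DESeq2. All genes split there into 4670 higher and 4645 lower after median-of-ratios scaling, 5538 and 5241 in edgeR, and 5270 and 5166 in DESeq2. In combination against cisplatin, 1 gene (Glb1) was lower after quantile normalization and with the replicate block (adjusted p = 0.0429), and among all genes DESeq2 called 444, edgeR 307 and the fit of only the groups compared 176, in place of 275. Outside the fits that leave out 1 library, the remaining counts moved by less than 1.5 times.

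Signs changed in cisplatin against vehicle for genes near 0. The median of all genes moved too, from 0.256 to 0.006 after median-of-ratios scaling and -0.033 after quantile normalization. It was 0.024 in edgeR, 0.011 in DESeq2 and 0.322 after rescaling to TPM. How much of each gene's change this shift makes up was not tested. Lgmn stood at -0.088 after median-of-ratios scaling, -0.050 in edgeR and -0.063 in DESeq2. In the order median-of-ratios, quantile, edgeR and DESeq2, Gusb stood at -0.215, -0.192, -0.414 and -0.427, Psap at -0.263, -0.115, -0.254 and -0.267, Gabarap at -0.261, -0.037, -0.145 and -0.158, Atg5 at -0.192, -0.168, -0.195 and -0.207, and Wipi1 at -0.228, -0.233, -0.220 and -0.233. Ctns stood at -0.037 after quantile normalization, -0.028 in edgeR and -0.040 in DESeq2, and Atg7 at -0.071 after median-of-ratios scaling and -0.128 after quantile normalization. Tpp1 was 0.015 and Map1lc3b 0.003 after rescaling to TPM, and Map1lc3b 0.008 in the FPKM of 10 libraries.

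Leaving out 1 library gave 9389 to 9731, 152 to 298 and 9545 to 9920 genes in the comparisons of cisplatin with vehicle, combination with cisplatin and combination with vehicle; the 275 genes of combination with cisplatin became 178 without cisplatin replicate 4, 158 without combination replicate 2 and 152 without combination replicate 3. Of the 43 genes, 21, 0 and 21 to 23 were then higher and 10 to 11, 0 to 1 and 12 to 13 lower. Values of 5 genes that had not passed then changed sign, within -0.084 to 0.009 for Tpp1, -0.027 to 0.129 for Gusb, -0.004 to 0.069 for Psap, -0.002 to 0.072 for Gabarap and -0.038 to 0.133 for Wipi1. Same-numbered libraries correlated above 0.1 in 3 of 12 pairs, all between cisplatin and combination (r of 0.561, 0.249 and 0.373, with -0.238 in the remaining pair). Pairing was taken only where every pair was above 0.1, so the fit without the block was kept; whether the numbers mark a shared batch of these groups is not settled by these values, and 6 of 12 libraries correlated best with their own number; the replicate block called 9696, 316 and 9826 genes. The number of libraries, 4 a group, limits which small changes can be called.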

Other observations

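The proton pump that acidifies the lysosome and the kinase complex that senses nutrients at its surface were counted in the same way. Of all 12428 genes tested, 56.3% rose and 21.8% fell after cisplatin. After median-of-ratios scaling 4618 of them were higher and 4602 lower. Of 22 subunits of the vacuolar ATPase tested, 3 rose, 8 fell and 11 did not pass after cisplatin; after median-of-ratios scaling 1 was higher and 17 lower. Atp6v0a1, a membrane subunit found in many cell types, rose from 18.3 ± 1.13 to 39.1 ± 3.91 FPKM (mean ± SD, n = 4), while Atp6v1b1, the subunit of acid-secreting intercalated cells, changed by -0.96 (SE 0.093, adjusted p = 4.89e-07) and Atp6v1c2 by -0.95 (SE 0.087, adjusted p = 2.75e-07). Of 24 genes of mTORC1 and the control of TFEB and TFE3, 10 rose, 8 fell and 6 did not pass; after median-of-ratios scaling 3 were higher and 13 lower. Mtor, the kinase itself, stood at 36.1 ± 1.95 FPKM in vehicle, 24.8 ± 1.56 in cisplatin and 21.0 ± 0.767 in combination libraries. Its difference between combination and cisplatin, -0.23, did not pass in limma (adjusted p = 0.0532), nor did any other of the 24 genes. Mlst8, another subunit of the complex, changed after cisplatin by 0.49 (SE 0.059, adjusted p = 4.08e-06), or 0.24 after median-of-ratios scaling. Fnip2, a partner of folliculin, changed by -0.96 (SE 0.115, adjusted p = 4.1e-06).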
